A study of Rattus norvegicus with 40 samples.

Results

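MiR-140 and miR-455 were followed in the plasma of 20 rats through the 4 mature miRNAs cut from their hairpins, rno-miR-140-3p, rno-miR-140-5p, rno-miR-455-5p and rno-miR-455-3p. These are 4 of the 752 miRNAs in the deposited count matrix, of which 581 had a read in any library, and all 4 had reads on both sampling days. They were chosen by name with earlier results of these counts in view, in which cartilage miRNAs stood among those lower in injured than in sham-operated rats. Their levels against sham, and from D2 to D9, are therefore given as a description with no test.

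All animals were adult male Sprague-Dawley rats. Of these, 16 received a traumatic brain injury (TBI) by lateral fluid percussion, a fluid pulse onto the exposed dura, and 4 were sham-operated, with the same craniotomy but no impact, so that the controls also carried a wound in the skull. By video-EEG in the sixth month, 7 TBI rats had developed epilepsy (TBI+) and 9 had not (TBI−). Plasma from tail-vein blood was drawn 2 days (D2) and 9 days (D9) after the operation and gave 1 small RNA library per rat and day, 40 in all. There was no naïve group among these libraries.

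MiRNAs are RNAs of about the length of the sequences printed below that are cut from a hairpin precursor and guide the silencing of messenger RNAs through their seed, bases 2 to 8. Each hairpin yields an arm from its 5′ side (5p) and an arm from its 3′ side (3p), which have different seeds and so different targets. MiR-140 is best known from chondrocytes, the cells of cartilage, where its hairpin lies inside the gene of the ubiquitin ligase Wwp2 and its loss disturbs skeletal growth. MiR-455 is also well expressed in cartilage, and its hairpin lies inside Col27a1, which encodes a fibrillar collagen of cartilage. In the RefSeq annotation both hairpins lie on the strand of the gene around them.

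The sequences identify what was counted and show that the arms of a hairpin do not share a seed. RefSeq, on the assembly GRCr8, held the mature sequence of 3 of the 4 members and both hairpins; mature miR-455-5p is named only. Here the seed is in capitals. MiR-140-3p lies at chr19:52375353-52375373, miR-140-5p at chr19:52375314-52375335 and miR-455-3p at chr5:81704881-81704902, all on the plus strand.
miR-140-3p: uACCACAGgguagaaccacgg
miR-140-5p: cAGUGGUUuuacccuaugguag
miR-455-3p: gCAGUCCAcgggcauauacacu

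The hairpins are shown to place the arms in their precursors, with the listed mature arms in capitals. Mir140 has 99 bases at chr19:52375293-52375391 and Mir455 has 78 bases at chr5:81704834-81704911, both on the plus strand.
Mir140: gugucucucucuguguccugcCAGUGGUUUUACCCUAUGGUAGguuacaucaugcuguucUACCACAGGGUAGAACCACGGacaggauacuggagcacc
Mir455: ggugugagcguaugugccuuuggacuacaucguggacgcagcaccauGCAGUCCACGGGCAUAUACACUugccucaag

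Each of the 3 seeds was held by 1 of the 693 mature miRNAs in the RefSeq table, the member itself. No other listed rat miRNA thus shared bases 2 to 8 with miR-140-3p, miR-140-5p or miR-455-3p.

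Levels are given as CPM, the reads of a miRNA per 1000000 miRNA reads of its library, so each level is relative to all other miRNAs in that library. Library totals lay between 404542 and 2562083 reads on D2 and between 140636 and 2864893 on D9. The 4 sham libraries of D9 were shallow, with 140636 to 358202 reads against 332161 to 2864893 in the TBI libraries of that day. A floor of 3 reads stood for 1.17 to 7.42 CPM on D2 and for 1.05 to 21.3 CPM on D9; floors and intervals of shares cover counting error only. One library, sham rat 2 on D9, stood apart. Without it, the count of all miRNAs called between TBI and sham rats on D9 fell from 17 to 0. The main fitted D9 differences from sham are therefore given with and without it. Markers of several other sources had reads in all libraries. The summed CPM of 5 red blood cell miRNAs lay between 122018 and 195609 in sham and between 85444 and 163253 in TBI rats on D2, and between 92914 and 145708 and between 116182 and 257943 on D9. That of 5 platelet and myeloid miRNAs lay between 51481 and 81416 (sham) and between 23838 and 91262 (TBI) on D2, and between 29392 and 71820 and between 26098 and 94501 on D9. The summed CPM of 3 neuronal miRNAs lay between 4437 and 8165 (sham) and between 3656 and 15153 (TBI) on D2, and between 1737 and 3750 and between 2417 and 9726 on D9, nearly all of it miR-128-3p. Neuron-specific miR-124-3p had no read in any sham library on either day, and lay between 11.1 and 71.7 CPM in all 16 TBI libraries on D2 and between 0 and 6.11 CPM on D9, so on D2 it separated the groups as well, in the opposite direction to miR-140-3p. MiR-9a-5p had 2 reads in all 40 libraries. The liver list was read from miR-192-5p, at 24406 to 41556 (sham) and 11192 to 103411 (TBI) CPM on D2 and 34228 to 92892 and 29555 to 107453 CPM on D9, and the muscle list from miR-206-3p, which had 11 reads in all 40 libraries. Liver miR-122-5p and the muscle miRNAs miR-1-3p and miR-133a-3p were listed at 0 in all 40 libraries. Entries outside these lists, namely miR-122-3p, miR-1b, miR-133a-5p and miR-133b-3p, had reads on D9. The zeros thus hold for the listed entries and do not show that these sources were absent. The part of these sources in the results was not tested.

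MiR-140-3p was by far the most abundant member and was lower in every TBI rat than in every sham rat on D2. It had 16740, 16048, 13063 and 9894 CPM in sham rats 1 to 4. In the 16 TBI rats it ranged from 4085 to 7208 CPM with a median of 5858, so the groups did not overlap. The sham mean was 13936 ± 3132 CPM (SD, n = 4) against 5930 ± 849 CPM after TBI (SD, n = 16), and the TBI mean was 42.6% of the sham mean. By mean CPM it ranked 21 of the 481 miRNAs with reads in sham rats and 30 of 555 in TBI rats. The paper measured this miRNA again by droplet digital PCR, in plasma from a few rats of another cohort. It reported no difference between naïve, sham and TBI rats, with a decreasing trend from naïve rats to the others. The separation of TBI from sham rats was thus not repeated there. In a bulk fluid such as plasma, fewer cells that release a miRNA and less of it released per cell cannot be told apart.

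The more abundant arm of miR-455 behaved likewise on D2. MiR-455-5p had 409, 423, 267 and 235 CPM in sham rats 1 to 4. TBI rats had 61.7 to 201 CPM with a median of 98.7, again with no overlap. The means were 333 ± 96.5 CPM (SD, n = 4) and 107 ± 43.6 CPM (SD, n = 16), and the TBI mean was 31.9% of the sham mean. By droplet digital PCR in the other cohort, the paper found this arm lower in TBI than in naïve rats. Between TBI and sham rats it found no difference. In the libraries, sham above TBI without overlap was seen for 2 of the 4 members. It held for 0.885% of the 565 miRNAs with reads on D2, the members included. Because the members were chosen with this contrast known, they are not read against that share.

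The less abundant arms were also lower in TBI rats on D2, but with overlap. MiR-140-5p, which is known to target the aggrecanase Adamts5 in cartilage, had 123, 84.1, 99.8 and 45.8 CPM in sham rats 1 to 4. TBI rats had 12.4 to 68.8 CPM with a median of 27.3, and 12 of the 16 lay below every sham rat. MiR-455-3p had 15.1, 4.59, 14.9 and 3.00 CPM in sham rats 1 to 4, which is 4 to 10 reads. TBI rats had 0 to 11.9 CPM with a median of 2.21, and 11 of these 16 libraries held at most 3 reads, so single values of miR-455-3p are near the limit of detection.

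**Figure D1:**
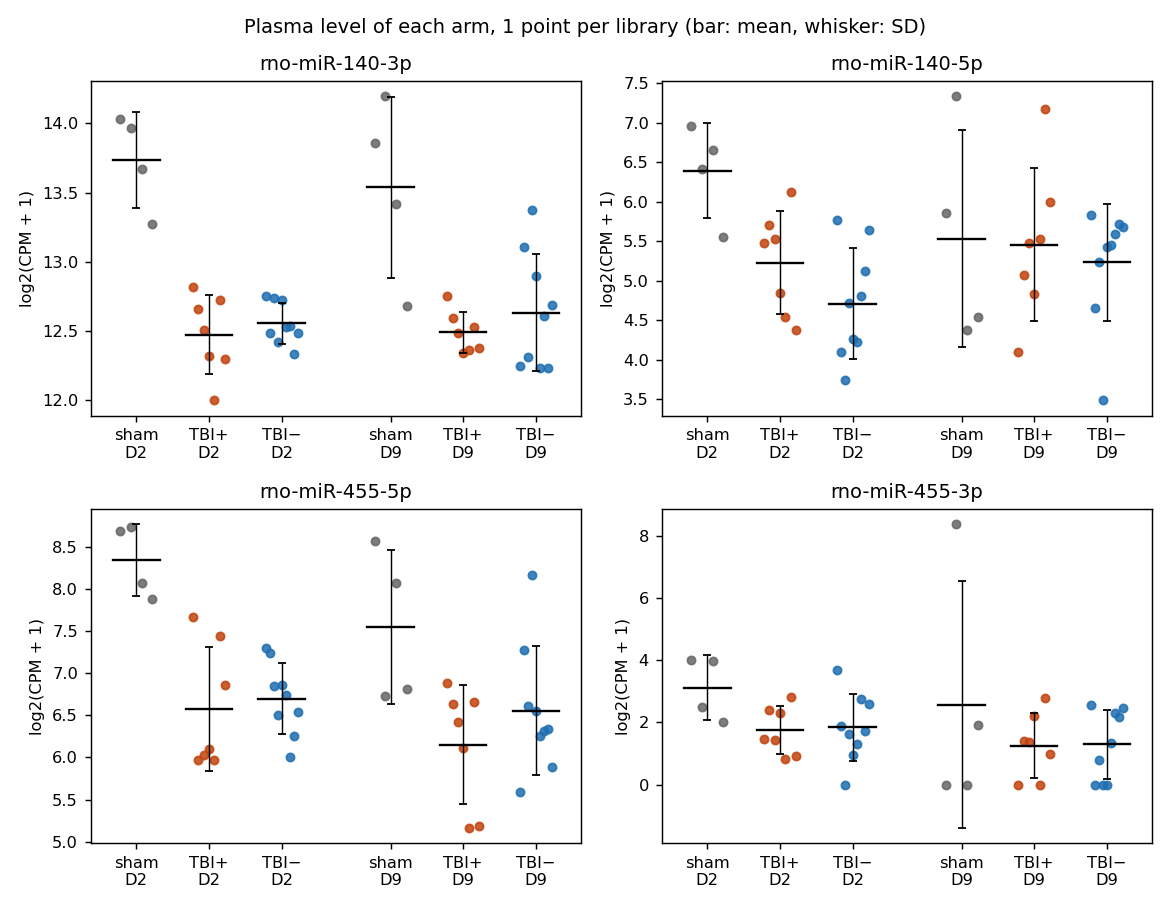
Level of each member as log2(CPM + 1), with 1 point per library for sham (grey), TBI+ (orange) and TBI− (blue) rats on D2 and D9; bars are means and whiskers SD. On D2 the sham points of miR-140-3p and miR-455-5p lie above all TBI points, and on D9 one sham library lies far above the rest for miR-455-3p.

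On D9 miR-140-3p was still lower in TBI rats, with a wider spread in sham rats. It had 14847, 18782, 10952 and 6572 CPM in sham rats 1 to 4 and 4797 to 10608 CPM, with a median of 5815, in TBI rats. Sham rats 1 to 3 lay above all TBI rats and sham rat 4 lay within their range. The means were 12788 ± 5234 CPM (SD, n = 4) and 6242 ± 1609 CPM (SD, n = 16), and the sham mean without rat 2 was 10790 ± 4140 CPM (SD, n = 3).

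MiR-455-5p had 377, 105, 267 and 111.7 CPM in sham rats 1 to 4 on D9 and 34.8 to 285 CPM, with a median of 82.0, in TBI rats. Of the 16 TBI rats, 13 lay below every sham rat. MiR-140-5p had 56.9, 160, 19.8 and 22.3 CPM in the sham rats, on 4 to 26 reads, and 10.2 to 143 CPM with a median of 43.1 in TBI rats, so its ranges almost coincided. MiR-455-3p had no read in sham rats 1 and 3, 54 reads or 333 CPM in sham rat 2 and 1 read or 2.79 CPM in sham rat 4. TBI rats had 0 to 5.89 CPM of it with a median of 1.56, and sham rat 2 alone lay outside that range. No member had all sham above all TBI libraries on D9, where this held for 0.185% of the 541 miRNAs with reads.

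The fitted differences used edgeR over all 20 libraries of a day and all miRNAs with a read, and are given as log2 fold changes. On D2 the log2 fold change of TBI against sham was -1.12 for miR-140-3p (SE 0.157), -1.23 for miR-140-5p (SE 0.309), -1.53 for miR-455-5p (SE 0.257) and -1.27 for miR-455-3p (SE 0.578). Over all 565 miRNAs, 3.19% were called lower and 3.19% higher in TBI rats at an adjusted p under 0.05 (Benjamini-Hochberg); the members, chosen on this contrast, are not read against that share. The library numbers in the titles were grouped here into runs, which have gaps within them. The labels do not name these runs or say what the numbers stand for. On D2 the sham libraries and those of TBI+ rats 1 to 4 fell in the same run. Within that run the log2 fold changes of TBI+ against sham were -1.15, -1.004, -1.70 and -1.61 in the same order.

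On D9 the log2 fold change of TBI against sham was -0.94 for miR-140-3p (SE 0.249), -0.28 for miR-140-5p (SE 0.505), -1.14 for miR-455-5p (SE 0.390) and -4.98 for miR-455-3p (SE 0.757). Over all 541 miRNAs, 2.4% were called lower and 0.739% higher, and again nothing is read from this for the members. Without sham rat 2 edgeR called 0 miRNAs, with 73 at an unadjusted p under 0.05. Without sham rat 2 the values became -0.85 for miR-140-3p, 0.61 for miR-140-5p, -1.51 for miR-455-5p and 0.71 for miR-455-3p. The direction of both minor arms on D9 thus turned with that library, and those of the major arms did not. In the run of library numbers that the D9 sham libraries share with TBI+ rats 1 to 4, the values were -1.07, -0.97, -1.24 and -5.46. These run values include sham rat 2 and were not computed without it. With all TBI+ rats and without sham rat 2, TBI+ against sham was 0.85 for miR-140-5p and 0.61 for miR-455-3p. In the TMM fit of all 20 libraries, which gave the first D9 values above, the median log2 fold change over all 541 miRNAs was 0.28. With TMM scaling of the 275 miRNAs kept by filterByExpr, which leaves out those with few reads, it was -0.06. With RLE scaling it was 0.11 and by DESeq2 -0.40 over all 541, so the centre of the D9 values depended on the setting.

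Both outcome groups had their own difference from the same sham libraries. On D2 the log2 fold changes of miR-140-3p were -1.20 (SE 0.184) for TBI+ and -1.05 (SE 0.174) for TBI− rats, and those of miR-455-5p were -1.59 (SE 0.305) and -1.47 (SE 0.288). On D9 they were -1.02 (SE 0.289) and -0.87 (SE 0.274) for miR-140-3p, and -1.36 (SE 0.449) and -0.91 (SE 0.429) for miR-455-5p. Without sham rat 2 the D9 values were -0.92 and -0.79 for miR-140-3p and -1.72 and -1.29 for miR-455-5p. Because the control samples are shared, the likeness of the columns is no result of its own. No TBI− library fell in the run of the sham libraries on either day, so TBI− against sham has no value within a run.

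The comparison of TBI+ with TBI− rats asks whether plasma miRNAs soon after the injury differ by later epilepsy, and the members were not chosen on it. No member passed the test on either day. On D2 miR-140-3p was at 5782 ± 1109 CPM in TBI+ (SD, n = 7) and at 6045 ± 630 CPM in TBI− rats (SD, n = 9). Its log2 fold change was -0.15, with a 95% interval from -0.46 to 0.16 (edgeR, adjusted p = 0.850). MiR-455-5p was at 106 ± 58.7 CPM and 107 ± 31.4 CPM, with a log2 fold change of -0.12 and an interval from -0.64 to 0.40 (edgeR, adjusted p = 0.970). MiR-140-5p was at 39.7 ± 17.6 CPM and 28.1 ± 14.7 CPM, a log2 fold change of 0.36 with an interval from -0.26 to 0.97 (edgeR, adjusted p = 0.799). For miR-455-3p, at 2.80 ± 2.02 and 3.59 ± 3.63 CPM, the interval from -1.84 to 0.49 left a difference of more than 2-fold in reach. Over all 565 miRNAs, 0% were called by edgeR, with 38 at an unadjusted p under 0.05, and DESeq2 called 0, with 26 at that level.

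On D9 miR-140-3p was at 5777 ± 609 CPM in TBI+ and at 6604 ± 2059 CPM in TBI− rats, a log2 fold change of -0.15 with an interval from -0.63 to 0.34 (edgeR, adjusted p = 0.959). MiR-455-5p was at 76.7 ± 32.1 CPM and 107 ± 73.1 CPM, a log2 fold change of -0.45 with an interval from -1.19 to 0.29 (edgeR, adjusted p = 0.875). MiR-140-5p was at 53.0 ± 42.5 CPM and 40.1 ± 14.6 CPM, a log2 fold change of 0.46 with an interval from -0.37 to 1.28 (edgeR, adjusted p = 0.880). MiR-455-3p was at 1.96 ± 2.13 CPM and 2.13 ± 2.09 CPM, with an interval from -2.04 to 1.56. Over all 541 miRNAs 0% were called by edgeR, with 22 at an unadjusted p under 0.05, and DESeq2 called 0, with 12 at that level. TBI+ and TBI− rats share a run of library numbers in 9 libraries on D2 and 8 on D9, and within it the log2 fold changes of miR-140-3p were -0.23 and -0.13. MiR-140-5p was at 0.57 and 1.41 within the runs, the latter with an adjusted p of 0.390 (edgeR).

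**Figure D2:**
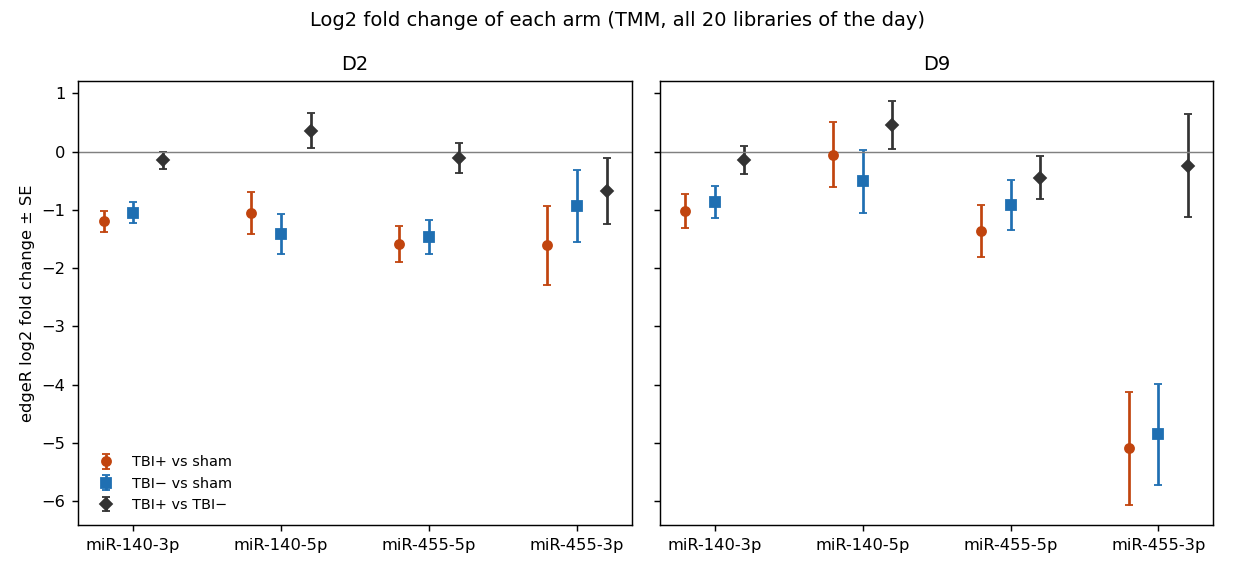
Log2 fold change from edgeR (y axis; whiskers are SE) of the 4 members for TBI+ against sham (circles), TBI− against sham (squares) and TBI+ against TBI− (diamonds) on D2 and D9. On D2 all 8 values against sham lie below 0, and on both days the TBI+ against TBI− values lie between -0.67 and 0.46.

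From D2 to D9 no member moved one way in all rats of any group. Only TBI− rats 5 and 6 had both libraries in the same run of library numbers. In sham rats all D2 libraries lay in 1 run and all D9 libraries in another, so day and run cannot be told apart. MiR-140-3p was higher on D9 in 8 of the 16 TBI rats and in 1 of the 4 sham rats, and the fitted log2 changes were 0.09 (SE 0.252) in TBI+, 0.05 (SE 0.225) in TBI− and -0.18 (SE 0.336) in sham rats. MiR-455-5p was higher on D9 in 7 of 16 TBI rats and 1 of 4 sham rats, with log2 changes of -0.37 (SE 0.314), -0.18 (SE 0.275) and -0.75 (SE 0.419). MiR-140-5p was higher on D9 in 8 of 9 TBI− rats, 3 of 7 TBI+ rats and 1 of 4 sham rats, with log2 changes of 0.53 (SE 0.305), 0.34 (SE 0.344) and -0.74 (SE 0.489). MiR-455-3p was lower on D9 in 12 of 16 TBI and 3 of 4 sham rats; its sham log2 change of 0.62 (SE 1.12) became -2.47 without sham rat 2.

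Whether TBI+ and TBI− rats differed in that change was tested over all 40 libraries with the rat as a block. The differences, as log2 values of TBI+ minus TBI−, were 0.04 for miR-140-3p (interval from -0.62 to 0.71), -0.19 for miR-140-5p (from -1.08 to 0.71), -0.19 for miR-455-5p (from -1.005 to 0.63) and 0.04 for miR-455-3p (from -3.01 to 3.09). Each had an adjusted p of 1.0 (edgeR), and 0% of 581 miRNAs were called, with 31 at an unadjusted p under 0.05. DESeq2 was not run on this comparison. Runs of library numbers also changed between the days and were not part of this fit.

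Ordered by mean CPM, miR-140-3p stood at 13936 in sham D2, 12788 in sham D9, 6604 in TBI− D9, 6045 in TBI− D2, 5782 in TBI+ D2 and 5777 in TBI+ D9. Neighbours in this order differed by less than the SD of either group, except for the step from sham D9 to TBI− D9. MiR-455-5p followed the order sham D2, sham D9, TBI− D9, TBI− D2, TBI+ D2 and TBI+ D9 as well, at 333, 215, 107, 107, 106 and 76.7 CPM. MiR-140-5p stood at 88.1 CPM in sham D2, 64.8 in sham D9, 53.0 in TBI+ D9, 40.1 in TBI− D9, 39.7 in TBI+ D2 and 28.1 in TBI− D2. Its place in sham D9 came by sham rat 2, without which the mean was 33.0 CPM, below TBI+ D9, TBI− D9 and TBI+ D2. MiR-455-3p stood at 84.0 in sham D9, by sham rat 2, 9.41 in sham D2, 3.59 in TBI− D2, 2.80 in TBI+ D2, 2.13 in TBI− D9 and 1.96 in TBI+ D9. For these 3 miRNAs each step between neighbours was smaller than the larger SD of the pair.

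Each hairpin had 1 dominant arm, the 3p arm of miR-140 and the 5p arm of miR-455. From miR-140, the 3p arm had more reads in all 40 libraries. The 5p arm held 0.584% of the summed miR-140 reads in sham and 0.611% in TBI rats on D2, and 0.472% and 0.902% on D9. Per library its share ran from 0.181% to 1.01% on D2 and from 0.0958% to 2.37% on D9. From miR-455, the 5p arm had more reads in 39 of 40 libraries and held 97.8% of the summed miR-455 reads in sham and 96.7% in TBI rats on D2. On D9 it held 97.1% in TBI rats and 74.9% in sham rats. Without sham rat 2, the sham shares of the 5p arms on D9 were 99.3% for miR-455, 147 of 148 reads, and 0.300% for miR-140. These are ratios of reads, and how evenly the library preparation captured the arms was not tested.

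The exception was again sham rat 2 on D9, with 17 reads of miR-455-5p and 54 of miR-455-3p. Its 5p share was 23.9%, with an exact Clopper-Pearson 95% interval from 14.6% to 35.5%. The same rat had 554 and 6 reads on D2, a 5p share of 98.9% (interval from 97.7% to 99.6%). Sham rats 1 and 3 had 53 and 54 reads of miR-455-5p and no read of miR-455-3p on D9, for which the interval of the 3p share ran up to 6.72% and 6.60%. Hairpins were compared where they had at least 20 reads both in a library and in the summed other libraries of its day. In sham rat 2 on D9, 5.88% of them had their leading arm on the other side than in that sum. This was near the top of the range of 0.599% to 6.25% in the other 39 libraries.

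The log2 ratio of 5p to 3p reads (0.5 added to each count) was -7.35 ± 0.357 for miR-140 in sham, -7.27 ± 0.442 in TBI+ and -7.87 ± 0.737 in TBI− rats on D2 (SD, n = 4, 7 and 9). The TBI+ mean lay 0.60 above the TBI− mean, which was within the spread between rats (exact permutation test, two-sided, p = 0.075, adjusted over 6 tests p = 0.45). On D9 the difference was 0.36 (exact permutation test, two-sided, p = 0.533, adjusted p = 0.904). For miR-455 the difference was 0.13 on D2 and -0.10 on D9 (adjusted p = 0.904 for each by exact permutation, two-sided). The change of the ratio from D2 to D9 differed by -0.24 for miR-140 and by -0.23 for miR-455 (exact permutation tests, two-sided, adjusted p = 0.904 for each). The less abundant arm of miR-455 had 10 reads or more in 4 libraries on D2 and 3 on D9, so its ratio rests on few reads.

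**Figure D3:**
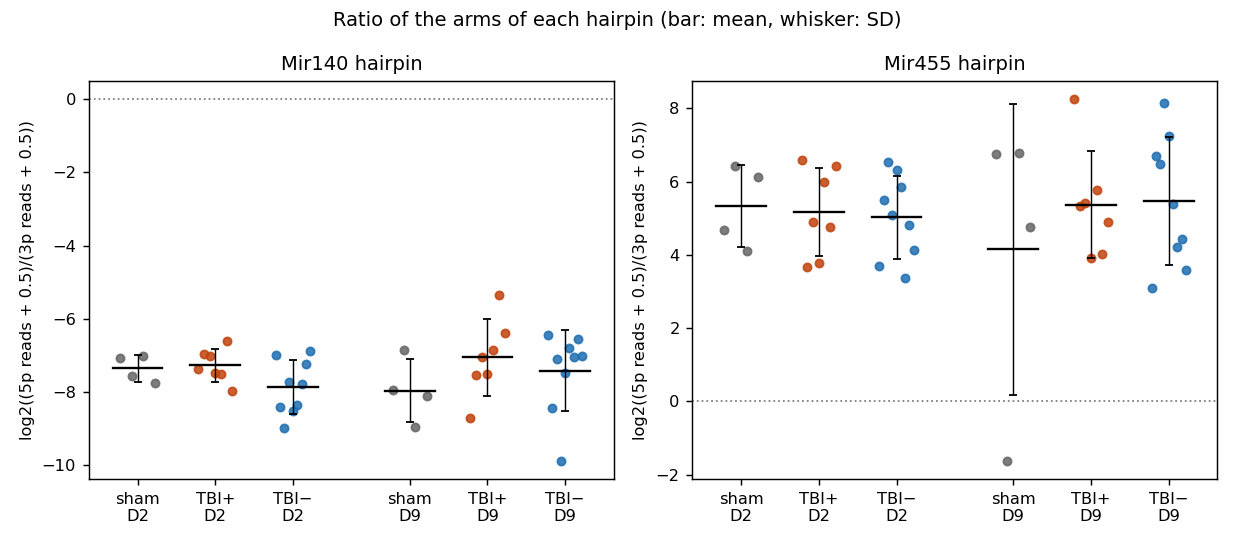
Log2 ratio of 5p to 3p reads of each hairpin, with 0.5 added to each count, 1 point per library, bars for means and whiskers for SD; the dotted line marks equal reads. All 40 points lie below the line for miR-140 and 39 of 40 above it for miR-455, with sham rat 2 on D9 at -1.64.

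Across the 16 TBI rats, the members were tested against one another and not against other miRNAs. Among them, the positive relations past the threshold on either day joined the hairpins, major arm with major arm and minor arm with minor arm. The major arms passed it by Pearson's r only. All 6 pairs on each day and the 4 relations of a member's D2 to its D9 level were computed on log2(CPM + 1), 16 relations in all, with permutation p-values adjusted over them. Levels of 1 library share its total, and none of these relations was used to choose the members. MiR-140-3p rose with miR-455-5p on D2 (Pearson's r = 0.59, adjusted permutation p = 0.0385; Spearman's rho = 0.51, adjusted permutation p = 0.118) and on D9 (r = 0.76, adjusted permutation p = 0.0101; rho = 0.59, adjusted permutation p = 0.0558). Without the 2 rats farthest from the median of miR-140-3p, r was 0.41 on D2 and 0.42 on D9 (unadjusted permutation p = 0.141 and 0.140), so on both days the relation rested on these rats. Within TBI+ and within TBI− rats r was 0.60 and 0.54 on D2 and 0.80 and 0.80 on D9, and in the libraries of the common run r reached 0.77 on D2 and 0.84 on D9.

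MiR-140-5p rose with miR-455-3p on D2 (r = 0.73, adjusted permutation p = 0.0101; rho = 0.72, adjusted permutation p = 0.0163) and on D9 (r = 0.63, adjusted permutation p = 0.0206; rho = 0.65, adjusted permutation p = 0.0446). Without the 2 farthest rats r was 0.60 and 0.47 (unadjusted permutation p = 0.0236 and 0.0864), so the D9 relation rested on them, and within the shared runs it was 0.86 and 0.73. MiR-455-3p had at most 3 reads in 11 of the 16 libraries on each day.

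Arms of 1 hairpin had no positive relation past the threshold on either day. MiR-140-3p and miR-140-5p had r = 0.27 on D2 (adjusted permutation p = 0.441; 0.84 in TBI+ and -0.18 in TBI− rats) and r = -0.60 on D9 (adjusted permutation p = 0.0385; rho = -0.46, adjusted permutation p = 0.178). The D9 relation rested on 2 rats, since r was -0.19 without them; it was -0.35 in TBI+ and -0.81 in TBI− rats. MiR-455-5p and miR-455-3p had r = 0.07 on D2 and r = -0.34 on D9 (adjusted permutation p = 0.814 and 0.353), with 0.13 and 0.32 in TBI+ rats, 0.01 and -0.80 in TBI− rats, and 0.62 and -0.31 within the shared runs. MiR-140-5p fell with miR-455-5p on D9 (r = -0.61, adjusted permutation p = 0.0385; rho = -0.60, adjusted permutation p = 0.0558), with r at -0.70 without the 2 farthest rats (unadjusted permutation p = 0.0055), -0.21 in TBI+ and -0.96 in TBI− rats. Whether the outcome groups differed in any of these relations was not tested, and on D2 its r was 0.06.

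Between the days, miR-455-3p on D2 was related to miR-455-3p on D9 in the same rats (r = 0.70, adjusted permutation p = 0.0122; rho = 0.76, adjusted permutation p = 0.0163), and r was 0.73 without the 2 farthest rats. The r between days was 0.13 for miR-140-3p, 0.30 for miR-140-5p and 0.19 for miR-455-5p (adjusted permutation p = 0.709, 0.419 and 0.592). In TBI+ and TBI− rats it was 0.87 and -0.25 for miR-140-3p, 0.20 and 0.34 for miR-140-5p, and 0.36 and -0.05 for miR-455-5p, a difference between the groups that was not tested.

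**Figure D4:**
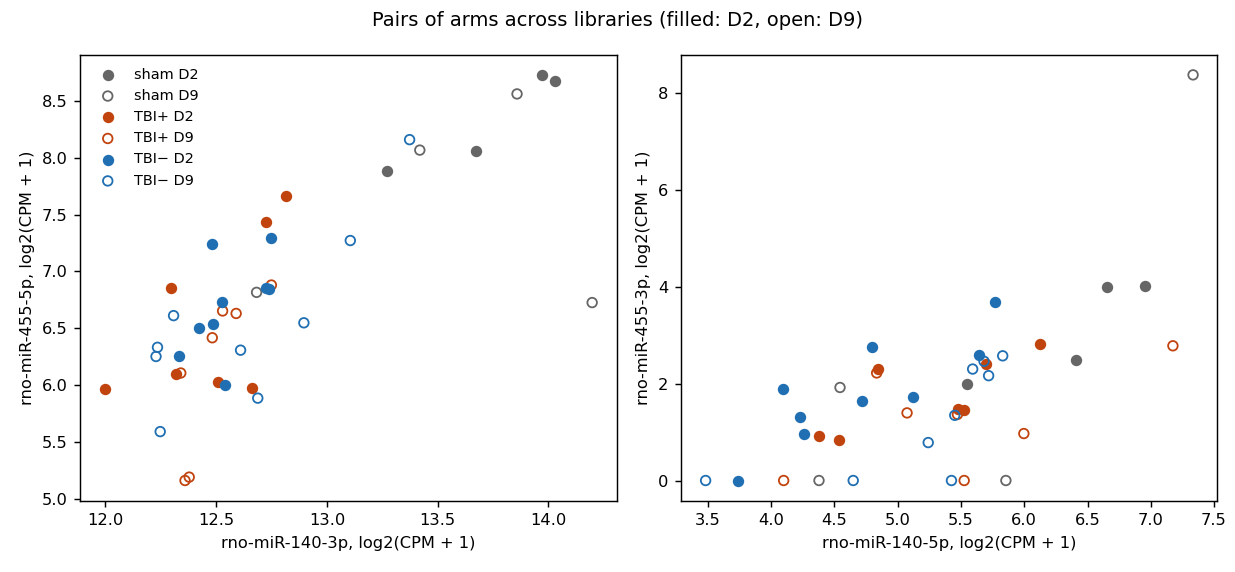
Log2(CPM + 1) of miR-455-5p against miR-140-3p (left) and of miR-455-3p against miR-140-5p (right), 1 point per library, filled for D2 and open for D9. On the left, 6 of the 8 sham libraries (grey) lie at the upper right; sham rat 4 on D9 lies among the TBI libraries, and sham rat 2 on D9 has the highest miR-140-3p level and a miR-455-5p level of 105 CPM.

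Library depth moved with some of these levels, which was looked at after the data were seen. Across the 16 TBI rats on D9, miR-140-5p rose with the log2 library total (r = 0.59, adjusted permutation p = 0.0849; rho = 0.68, adjusted permutation p = 0.0382; r = 0.41 without the 2 farthest rats), and miR-140-3p fell with it (r = -0.56, adjusted permutation p = 0.0849; rho = -0.46, adjusted permutation p = 0.204; r = -0.18 without the 2 farthest rats). On D2 r was 0.52 for miR-140-5p and -0.12 for miR-140-3p (adjusted permutation p = 0.103 and 0.686, over 8 relations). For miR-455-3p r was 0.38 on D2 and 0.45 on D9 (adjusted permutation p = 0.201 and 0.164). For miR-455-5p r was 0.11 on D2 and -0.39 on D9 (adjusted permutation p = 0.686 and 0.201), and 0.06 on D9 without the 2 farthest rats. On D9 both minor arms thus had a positive r with depth and both major arms a negative r. The 4 shallowest TBI libraries of D9, with 332161 to 611876 reads, had 5184 to 10608 CPM of miR-140-3p and 67.9 to 285 CPM of miR-455-5p, beside 6572 to 18782 and 105 to 377 CPM in the sham libraries of 140636 to 358202 reads. On D2, where 9 TBI libraries were no deeper than the deepest sham library, these 9 had 5022 to 6830 CPM of miR-140-3p and 61.9 to 150 CPM of miR-455-5p, all below every sham library. After thinning every library to the smallest of its day, the log2 fold changes of TBI against sham were -1.17 and -1.22 for miR-140-3p and -1.61 and -1.38 for miR-455-5p on D2 and D9. Without sham rat 2 the thinned D9 values were -1.02 and -1.63.

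**Figure D5:**
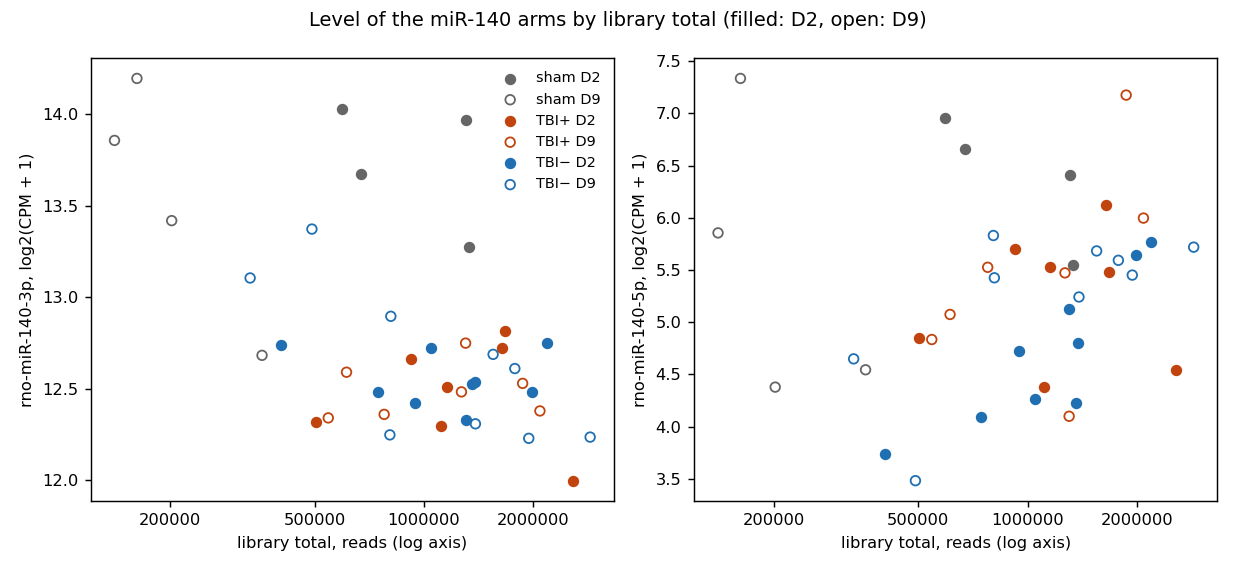
Log2(CPM + 1) of miR-140-3p (left) and miR-140-5p (right) against the library total in reads (log axis), filled for D2 and open for D9. The sham libraries of D9 lie at the left, at 140636 to 358202 reads, and on D2 sham and TBI libraries of like totals lie apart for miR-140-3p.

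The miRNAs most like each member were sought over all 40 libraries by Spearman's rho of CPM, among 199 miRNAs with a read in at least 80% of libraries and a mean of at least 30 CPM. This is a description, and the differences between groups and days enter it. For miR-140-3p they were miR-455-5p (rho 0.73), miR-149-5p (0.66) and miR-326-3p (0.58). For miR-455-5p they were miR-450a-5p (0.75), miR-450b-5p (0.74) and miR-351-5p (0.74). The minor arms had other neighbours: miR-150-5p (0.72), miR-342-3p (0.67) and miR-186-5p (0.64) for miR-140-5p, and miR-361-5p (0.68), miR-140-5p (0.65) and miR-30c-5p (0.64) for miR-455-3p. Within the TBI rats, the rho of miR-140-3p on D2 and D9 was 0.51 and 0.59 with miR-455-5p and 0.74 and 0.54 with miR-149-5p. With miR-326-3p it was 0.04 and 0.59. The rho of miR-455-5p was 0.64 and 0.66 with miR-450a-5p, 0.61 and 0.65 with miR-450b-5p and 0.57 and 0.59 with miR-351-5p. MiR-186-5p had a rho of 0.85 with miR-140-5p on D2 and of 0.89 on D9, beside 0.72 and 0.65 for miR-455-3p with miR-140-5p.

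Of 22 other miRNAs known from cartilage and mesenchyme, such as miR-199a, miR-214 and miR-145, 19 had reads, and miR-214-5p, miR-29a-3p and miR-210-3p were listed at 0 in all libraries. The list is not limited to miRNAs found only in these tissues. It holds abundant plasma miRNAs such as miR-22-3p, at a mean of 124833 CPM in sham rats on D2. Whether its reads came from cartilage was not tested. On D2, 1 of the 19 was called higher and 1 lower in TBI than in sham rats, where 3.19% of all miRNAs were called each way, with a median log2 fold change of 0.10 beside 0.08 over all miRNAs. MiR-127-3p, an imprinted miRNA, had a mean of 528 ± 129 CPM in TBI against 240 ± 93.8 CPM in sham rats (SD, n = 16 and 4), a log2 fold change of 1.20 (SE 0.242, edgeR adjusted p = 0.00165). MiR-222-3p, a regulator of the cell cycle, was at 225 ± 51.6 CPM and 399 ± 82.1 CPM, a log2 fold change of -0.73 (SE 0.188, edgeR adjusted p = 0.0128). It was not called when scaled to miR-28-3p, with the animal number as a block, within the sham run of library numbers, or without sham rat 2 or 3. MiR-214-3p had 99.9 ± 23.4 CPM in TBI and 101.8 ± 32.9 CPM in sham rats, and miR-145-5p had 671 ± 280 and 669 ± 345 CPM.

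On D9, 0 of 18 were called higher and 1 lower, where 0.739% and 2.4% of all miRNAs were, with a median log2 fold change of -0.07 beside 0.28 over all miRNAs. It was miR-146a-5p, a brake on innate immune signalling, with a mean of 831 ± 363 CPM in TBI against 3939 ± 6256 CPM in sham rats (SD, n = 16 and 4) and a log2 fold change of -2.13 (SE 0.424, edgeR adjusted p = 0.000980). The sham value ran from 559 to 13311 CPM, and without sham rat 2 no miRNA of the list was called on D9. By DESeq2, 1 of the list was called higher and 0 lower, and with filterByExpr or scaling to miR-28-3p 2 were called lower. MiR-222-3p, called lower on D2, was higher in TBI rats on D9, at 285 ± 107 CPM against 121 ± 62.9 CPM in sham rats. Its log2 fold change, sham rat 2 included, was 1.32 (SE 0.385, edgeR adjusted p = 0.0507). The paper called it higher on D9. Between TBI+ and TBI− rats 0 of 19 on D2 and 0 of 18 on D9 were called by edgeR.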

How the data were processed

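Plasma small RNA was sequenced from 20 rats on D2 and D9. The authors checked reads with FastQC 11.8, trimmed them with Trimmomatic 0.36 and dropped reads under 17 bases, merged both flow cells, aligned to Rno6 with Bowtie2 and assigned reads to miRBase entries with featureCounts (Subread). They deposited raw read counts for 752 miRNAs and 40 libraries, which were used as counts; 0 columns were left unmapped and 0 pairs of libraries were identical. Precision follows from the library totals and the floor of 3 reads given with the levels. Reads of near-identical miRNAs were not told apart beyond the deposited assignment.

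Rat, group and day came from the labels. Libraries are of separate rats, but 1 library per rat and day leaves technical error unmeasured. Groups were compared by the quasi-likelihood test of edgeR after TMM scaling, with Benjamini-Hochberg adjustment over all miRNAs with a read that day, on all 20 libraries of the day. The SE was the log2 fold change divided by the root of F. Changes from D2 to D9 used all 40 libraries with the rat as a block. That pairing comes from the titles; the correlation of a rat's D2 and D9 deviations ran from -0.20 to 0.32 over 333 miRNAs. Arm ratios were tested by exact permutation, relations by permutation with 100000 resamples, and shares got exact Clopper-Pearson intervals. The hemolysis index was the log2 ratio of miR-451-5p to miR-23a-3p. The scripts were tested on simulated data. Alternatives were other scalings (RLE, library totals, miR-28-3p), filterByExpr, thinning, DESeq2, blocking by animal number, a covariate for hemolysis, the libraries of 1 run only, another pseudocount, and each sham rat left out. Further D9 values without sham rat 2 were added after the data were seen.

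The members and lists were chosen with earlier results of these data known. Named were the members, the 3 miRNAs most like each, those sharing a seed, list miRNAs called in a comparison and markers. Added after their values were seen were miR-214-3p, miR-145-5p and the unlisted entries of liver and muscle miRNAs. Sequences, host genes and positions are from RefSeq (GRCr8), a build other than that of the counts. Marker lists held 6 red blood cell miRNAs (5 in the file), 5 of platelets and myeloid cells, 2 of liver, 3 of muscle and 3 of neurons. Fits ran in edgeR 4.0.16 and DESeq2 1.42.0 under R 4.3.3. Permutation tests used scipy 1.17.1 and numpy 2.4.6, tables pandas 2.3.3 and figures matplotlib 3.10.9, under Python 3.11.15.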

Additional observations from a re-analysis of the deposited data

Results flagged for a closer look

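In 5 of 36 sets of values, 1 library lay far from the others of its group by Dixon's criterion. A set was 1 level or arm ratio in 1 group on 1 day, with 4 to 9 libraries. About 1 of 20 sets of independent, normally distributed values would meet the criterion. Sets here share libraries and reads, and miR-455-3p lies near its floor, so 5 is not read against that rate. Sham rat 2 on D9 had 333.1 CPM of miR-455-3p, where the other 3 sham rats of that day had 0 to 2.79 CPM. TBI− rat 1 on D2 had 11.92 CPM of miR-455-3p, on 26 reads, where the other TBI− rats had at most 5.81 CPM. TBI+ rat 6 on D9 had 143.5 CPM of miR-140-5p, on 268 reads, where the next TBI+ rat had 62.9 CPM, and its 5p share of miR-140 reads was 2.37% (exact Clopper-Pearson 95% interval from 2.10% to 2.67%). TBI− rat 4 on D9 had 284.9 CPM of miR-455-5p, where the next TBI− rat had 154 CPM. TBI+ rat 1 on D9 had a log2 ratio of miR-455-5p to miR-455-3p reads of 8.253, with 0 reads of miR-455-3p.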

How the results depend on the processing

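Of 364 values recomputed under another setting, 326 kept their direction and their side of the threshold or moved less than the spread between rats, 26 moved further, 9 changed sign, 2 fell short of the threshold and 1 passed it. Those 9 leave out 2 values given without a test that also turned sign without sham rat 2, miR-140-5p against sham on D9 and the sham change of miR-455-3p. For TBI+ against TBI− on D2, miR-455-5p was at a log2 fold change of 0.0057 with library totals and 0.045 scaled to miR-28-3p. On D9, miR-455-3p was at 0.26 within the shared run of library numbers, and the miR-140 arm ratio differed by -0.14 among libraries with 10 reads or more on the minor arm. For the difference in the change from D2 to D9, miR-140-3p was at -0.022 and miR-140-5p at 0.096 with no replicate block, and with library totals miR-140-3p was at -0.060 and miR-455-3p at -0.10. The sham change of miR-455-3p was 3.13 with no replicate block. For TBI against sham on D9, miR-455-3p ran from -5.42 to 0.71 as each sham rat was left out, and its sham change ran from -2.47 to 1.94. Counts of called miRNAs ran from 22 to 31 on D2 (36 with all rats) and from 0 to 22 on D9 (17 with all rats) as each sham rat was left out. On D9 the count was 29 with RLE scaling, 29 with miR-28-3p, 26 after thinning and 10 within the run. Among the D9 calls 4 of 17 were higher in TBI, 4 of 29 with RLE, 2 of 29 with miR-28-3p, 3 of 26 after thinning, 0 of 10 within the run and 6 of 20 by DESeq2. On D2, 18 of 36 were higher, 19 of 28 with miR-28-3p, 26 of 42 by DESeq2 and 16 of 24 within the run. TBI+ against TBI− on D2 had 1 call within the run. The cause of these shifts was not tested, and depth limits miR-455-3p most.

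Animal numbers shared by groups marked no pairing: correlations of same-numbered rats' deviations ran from -0.39 to 0.28. With the animal number as a replicate block, 6 miRNAs were called for TBI against sham on D9, 28 on D2, 19 of them higher, and 3 for TBI+ against TBI− on D2, and for the members it gave log2 fold changes of -1.06 for miR-140-3p on D2 and -0.82 on D9, or -0.79 on D9 without sham rat 2.

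Among the relations, on TMM library sizes miR-140-3p with miR-140-5p on D9 had r = -0.56 (adjusted permutation p = 0.0667) and miR-140-5p with miR-455-5p r = -0.58 (adjusted permutation p = 0.0555). With a pseudocount of 0.5 CPM, miR-140-3p with miR-455-3p on D9 had r = -0.56 (adjusted permutation p = 0.0437).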

Other observations

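Looked at after the data were seen, the CPM of miR-140-3p fell with the library number in the 4 sham libraries of D2, in those of TBI+ rats 1 to 4 on D2 (7208, 6469, 5818 and 5110 CPM) and in those of TBI+ rats 1 to 4 on D9 (6883, 6165, 5721 and 5184 CPM), but not in the sham libraries of D9. Among the 565 miRNAs with reads on D2 it was the only one, 1 of 565, with this order in those 3 sets. The order alone was met by 17 miRNAs in the sham set of D2 and by 44 and 18 in the TBI+ sets of D2 and D9.

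The hemolysis index averaged -0.525 ± 0.656 in sham and -0.276 ± 0.645 in TBI rats on D2 (SD, n = 4 and 16), and 1.13 ± 0.229 and 1.28 ± 0.626 on D9. With it as a covariate, the log2 fold change of TBI against sham was -1.13 for miR-140-3p and -1.50 for miR-455-5p on D2, and -0.95 and -1.12 on D9, or -0.86 and -1.50 without sham rat 2.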
